A study of Homo sapiens with 12 samples.

Results

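The 29 genes described here code for enzymes of cholesterol synthesis, enzymes of fatty acid synthesis and desaturation, and the regulators and carriers most closely tied to them, and they were chosen by their known roles, with earlier results of these data known. They are 29 of the 62710 genes counted in the series, and all 29 passed the filter on low counts that left 20593 genes for testing. Poly(A) RNA was sequenced from HEK293T, a line of transformed human kidney cells, to see how splicing effectors built on dCasRx alter gene expression and splicing across the transcriptome. dCasRx is CasRx, a nuclease that a guide RNA leads to a transcript, without its cutting activity. Every culture was transfected with effector plasmid (200 ng) and guide plasmid (200 ng) in medium with fetal bovine serum, and RNA was collected 48 h later. dCasRx-RBM25, in which dCasRx is joined to the splicing factor RBM25, was combined with a nontargeting guide (RBM25_NT), a guide to MAPT exon 10 for activation (RBM25_MAPT) or a guide to CD46 exon 13 for repression (RBM25_CD46). RBFOX1N-dCasRx-C, in which dCasRx is joined to parts of the splicing factor RBFOX1, was combined with the nontargeting guide (RBFOX1N_NT) or the MAPT guide (RBFOX1N_MAPT). dCasRx with the nontargeting guide (dCasRx_NT) was the control, and no untransfected cells are among the 12 libraries, so all groups share the transfection and a dCasRx protein. Each group had 2 libraries, which the design text calls biological replicates.

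Cholesterol is built from acetyl-CoA through mevalonate and farnesyl diphosphate to squalene, which is closed into lanosterol and then trimmed and rearranged to cholesterol in the endoplasmic reticulum. Most genes of this route are switched on by the transcription factor SREBP-2, and those of fatty acid synthesis by SREBP-1. When sterols are plentiful, INSIG proteins hold the SREBP precursors in the endoplasmic reticulum, so that cells grown with serum lipoproteins usually make less cholesterol than cells deprived of them.

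The libraries held 32487927 to 53985468 counts, and the 29 genes together took 0.526% to 0.569% of them. RBM25 itself, to which reads of the effector also map, took 4.08% to 5.69% of counts where dCasRx-RBM25 was present and 0.02% to 0.0381% in the 6 other libraries. The 13 mitochondrial mRNAs took 2.16% to 3.51% of counts. The 7 markers of HEK293T cells summed to 987 to 1280 CPM over all libraries, most of it VIM (646 to 863 CPM), against 0.864 to 1.65 CPM for 5 hepatocyte markers, 3.65 to 5.05 CPM for 4 adipocyte markers and 2.69 to 4.86 CPM for 3 macrophage markers. Of the 7 HEK293T markers, 4 were higher and 1 lower with dCasRx-RBM25 against RBFOX1N-dCasRx-C, where 18.0% of all genes were higher and 18.7% lower. KRT8, the one that was lower, had 25.3 to 29.45 CPM with dCasRx-RBM25, 65.3 to 67.3 CPM with RBFOX1N-dCasRx-C, and 30.4 and 28.6 CPM in dCasRx_NT. In every group the replicates differed beyond sampling noise (chi-square per gene, 6.07 to 32.7). The 2 RBM25_MAPT libraries were the farthest apart (32.7) and the 2 dCasRx_NT libraries came next (19.9), and the calls that rest on one of these libraries are named below.

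Between the effectors, 14 of the 29 genes differed. Under matched guides, that is, the mean of the differences with the nontargeting and the MAPT guide, 9 genes were higher under dCasRx-RBM25 than under RBFOX1N-dCasRx-C and 5 were lower (edgeR quasi-likelihood test, Benjamini-Hochberg adjusted p under 0.05 over all 20593 genes). The same test called 36.7% of all genes, 18.0% higher and 18.7% lower. The median log2 fold change was 0.03 over the 29 genes and 0.01 over all genes. Calls in both directions were thus made among all genes as well. HMGCS1, IDI1, SQLE, MSMO1, SC5D, INSIG1, VLDLR, STARD4 and SCD were higher with dCasRx-RBM25, and MVK, PMVK, HSD17B7, TM7SF2 and DHCR7 were lower. All 6 dCasRx-RBM25 libraries, the CD46 guide included, lay above all 4 RBFOX1N-dCasRx-C libraries for 8 of the 29 genes and below them for 5, against 14.5% and 16.6% of all genes. Under matched guides alone, 9 genes lay wholly above and 6 wholly below, against 16.8% and 18.4% of all genes.

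**Figure D1:**
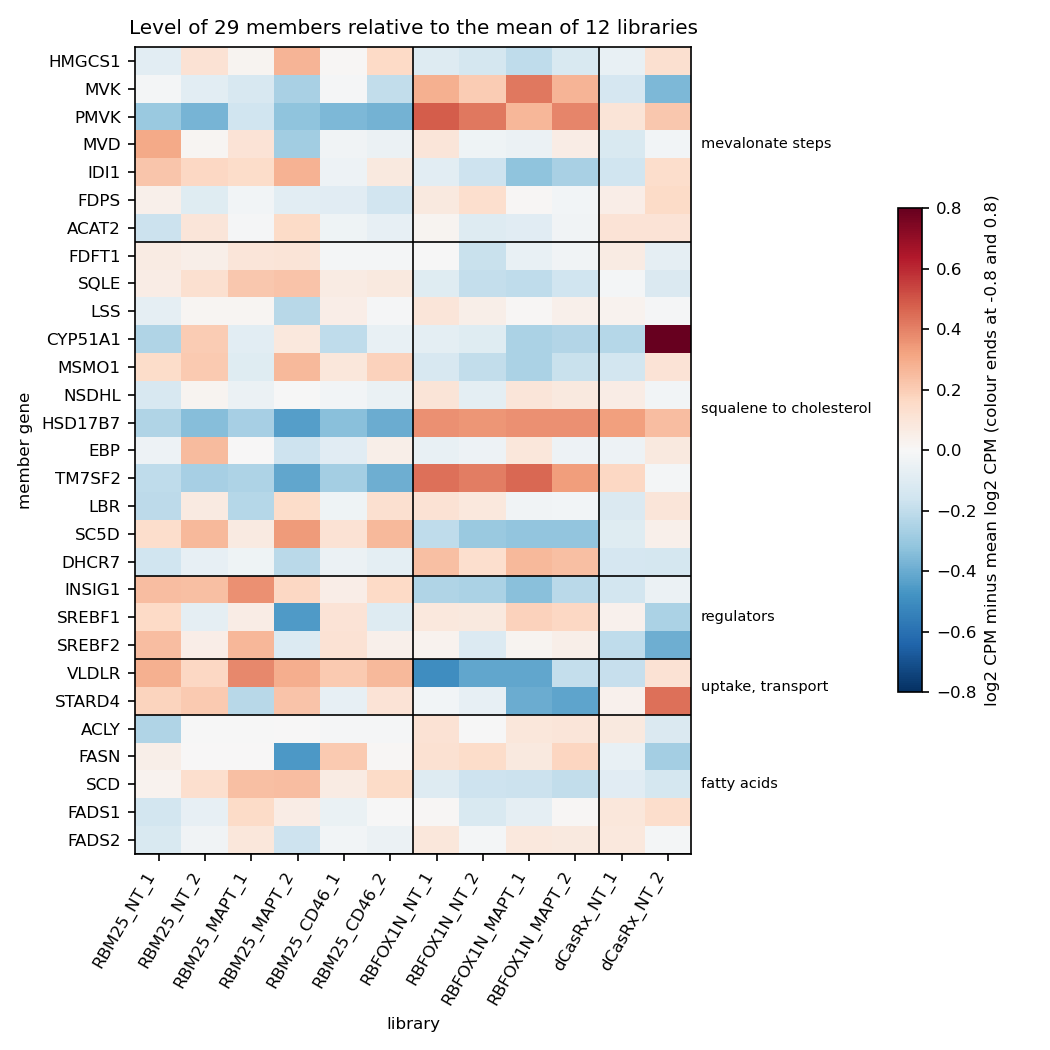
Level of each of the 29 genes (rows, grouped by role) in each of the 12 libraries (columns), as log2 CPM minus the gene's mean log2 CPM over the 12 libraries, with red above and blue below the mean. PMVK, HSD17B7 and TM7SF2 are blue in all 6 dCasRx-RBM25 libraries and red in all 4 RBFOX1N-dCasRx-C libraries, and INSIG1, SC5D and VLDLR show the opposite colours; the CYP51A1 cell of dCasRx_NT replicate 2 lies beyond the colour scale.

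**Figure D2:**
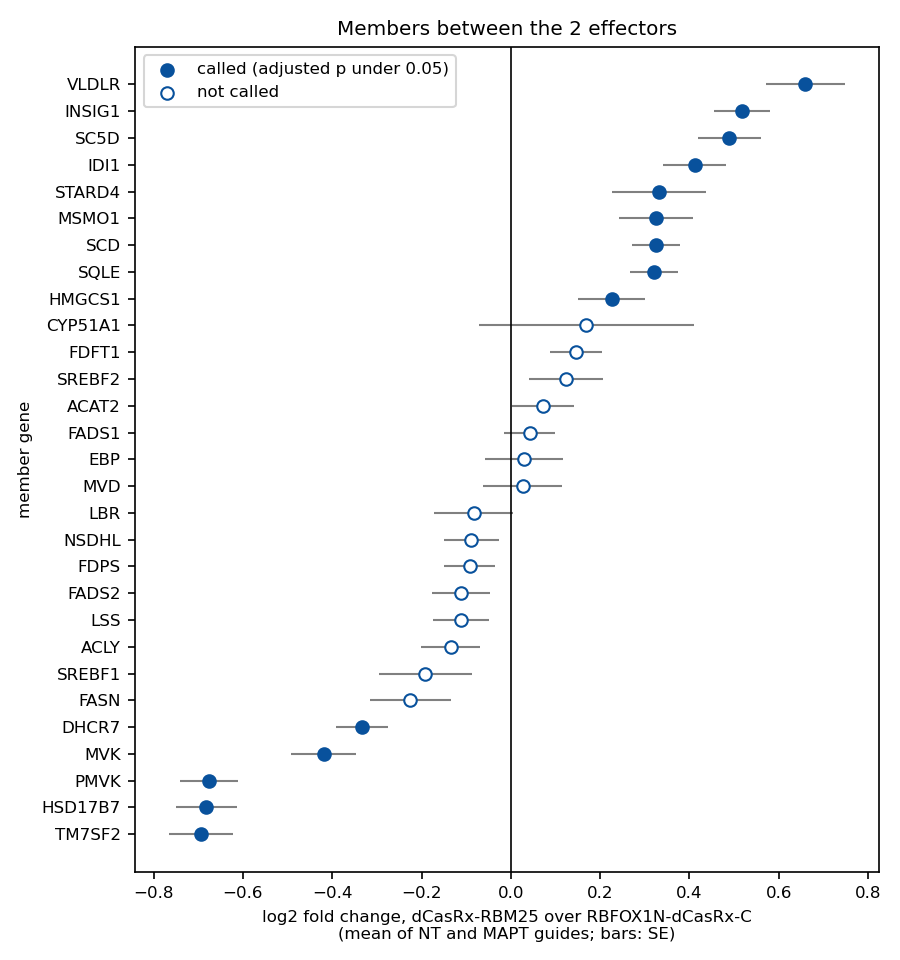
Fitted log2 fold change of each of the 29 genes with dCasRx-RBM25 over RBFOX1N-dCasRx-C under matched guides (points) with its SE (bars), filled where the adjusted p was under 0.05. The values run from -0.69 for TM7SF2 to 0.66 for VLDLR, with 9 filled points above 0 and 5 below.

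Against the dCasRx control fewer of these genes passed the test, with fewer libraries in each comparison. The SE of the 29 genes was 0.08 to 0.33 in log2 in each of these comparisons, against 0.05 to 0.24 between the effectors. The numbers of calls were therefore not reached at equal precision. In RBM25_NT, INSIG1 and SREBF2 were higher than in dCasRx_NT and PMVK and HSD17B7 were lower, 4 of 29 where 7.62% of all genes were called (3.88% higher and 3.74% lower). In RBFOX1N_NT, MVK, TM7SF2 and DHCR7 were higher than in dCasRx_NT and VLDLR was lower, 4 of 29 where 10.8% of all genes were called (7.52% higher and 3.25% lower). RBM25_NT lay wholly above dCasRx_NT for 11 genes and wholly below for 7, against 27.0% and 23.3% of all genes. RBFOX1N_NT lay wholly above dCasRx_NT for 9 genes and wholly below for 7, against 29.4% and 27.3% of all genes. For 6 genes the 2 sets lay on opposite sides of dCasRx_NT and the effectors differed by the test, against 8.07% of all genes. The median log2 fold changes were 0.03 and -0.00 over the 29 genes, against 0.01 and -0.01 over all genes. Both comparisons use the same 2 dCasRx_NT libraries. Without dCasRx_NT replicate 2, PMVK and HSD17B7 were still called in RBM25_NT, while INSIG1 and SREBF2 were not, and 0 of 29 genes were called in RBFOX1N_NT. The share of all genes called then also fell, to 2.8% in RBM25_NT and 3.96% in RBFOX1N_NT. Without RBFOX1N_NT replicate 1 or replicate 2 the count in RBFOX1N_NT was also 0, with 4.45% and 2.88% of all genes called. TM7SF2 and VLDLR lost their calls in RBFOX1N_NT without any single library other than the 2 RBM25_MAPT libraries and dCasRx_NT replicate 1. DHCR7 lost its call there also without RBFOX1N_MAPT replicate 1. In RBM25_NT, INSIG1 kept its call only without RBM25_MAPT replicate 1 or 2 or RBFOX1N_MAPT replicate 2, and SREBF2 only without RBM25_MAPT replicate 1 or 2, RBM25_NT replicate 2 or dCasRx_NT replicate 1. In a bulk sample, a lower level cannot be told apart from fewer cells that express the gene.

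Splicing events within the 29 genes numbered 1390 in the authors' table of percent spliced in (PSI), the percent of reads that include an exon, intron or splice site, and 412 of them had enough reads to be tested. Inclusion and exclusion reads of 100247 events were tested in a quasi-binomial model, and an event was called where mean PSI differed by 10 points or more with an adjusted p under 0.05. With dCasRx-RBM25 against RBFOX1N-dCasRx-C under matched guides, 4 of the 412 events were called, all lower, against 2.86% of all events (1.33% higher and 1.54% lower). RBM25_NT had 1 called event against dCasRx_NT, which was higher, where 0.732% of all events were called (0.289% higher and 0.443% lower). RBFOX1N_NT had 3, all higher, where 1.14% of all events were called (0.607% higher and 0.537% lower). At any size of difference, 45 of the 412 events passed the adjusted p between the effectors, 10 in RBM25_NT and 9 in RBFOX1N_NT, against 12.1%, 2.31% and 2.7% of all events. The called events lie in FDPS, TM7SF2 and MSMO1.

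The first steps of the pathway run from acetyl-CoA to farnesyl diphosphate. Here 2 of the 7 genes were higher under dCasRx-RBM25 than under RBFOX1N-dCasRx-C and 2 were lower, against 18.0% and 18.7% of all genes. ACAT2, which joins acetyl-CoA units in the cytosol, had 61.6 to 77.1 CPM over the 12 libraries and was called in none of the comparisons. HMGCS1, which makes HMG-CoA from its product, had 91.6 and 105 CPM in RBM25_NT, 98.8 and 117 CPM in RBM25_MAPT, 97.8 and 109 CPM in RBM25_CD46, 90.6 and 88.3 CPM in RBFOX1N_NT, 84.5 and 89.4 CPM in RBFOX1N_MAPT, and 93.4 and 106 CPM in dCasRx_NT. All dCasRx-RBM25 libraries lay above all RBFOX1N-dCasRx-C libraries, though the nearest were 91.6 and 90.6 CPM, and the dCasRx_NT libraries lay within the range of dCasRx-RBM25. The fitted difference between the effectors was 0.23 in log2 (SE 0.08, adjusted p = 0.0312, edgeR). That call was lost when any of the 4 RBFOX1N-dCasRx-C libraries, RBM25_NT replicate 2 or RBM25_MAPT replicate 2 was left out.

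Mevalonate is phosphorylated first by MVK and then by PMVK, and the levels of both kinases were lower under dCasRx-RBM25 than under RBFOX1N-dCasRx-C. MVK had 44.6 and 42.5 CPM in RBM25_NT, 41.2 and 37.7 CPM in RBM25_MAPT, 44.8 and 39.4 CPM in RBM25_CD46, 54.9 and 52.0 CPM in RBFOX1N_NT, 60.4 and 54.4 CPM in RBFOX1N_MAPT, and 41.0 and 35.1 CPM in dCasRx_NT. The 4 RBFOX1N-dCasRx-C libraries stood above all 8 others. MVK rose in RBFOX1N_NT relative to dCasRx_NT by 0.49 in log2 (SE 0.10, adjusted p = 0.00948, edgeR), and the difference of dCasRx-RBM25 from RBFOX1N-dCasRx-C was -0.42 (SE 0.07, adjusted p = 0.000695). In RBM25_NT the difference from dCasRx_NT was 0.20 (SE 0.10, adjusted p = 0.267). MVK overlaps MMAB on the opposite strand, and whether the authors counted by strand is not given in the sources used here.

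PMVK, the second kinase, was like MVK lower under dCasRx-RBM25 than under RBFOX1N-dCasRx-C, and it was also lower there than in the control. PMVK had 29.05 and 27.6 CPM in RBM25_NT, 32.0 and 28.6 CPM in RBM25_MAPT, 27.8 and 27.5 CPM in RBM25_CD46, 49.9 and 47.7 CPM in RBFOX1N_NT, 42.9 and 46.8 CPM in RBFOX1N_MAPT, and 38.3 and 41.4 CPM in dCasRx_NT. The control lay between the effectors and overlapped neither. PMVK fell in RBM25_NT relative to dCasRx_NT by 0.50 in log2 (SE 0.09, adjusted p = 0.0064, edgeR), and in RBFOX1N_NT the difference from dCasRx_NT was 0.29 (SE 0.09, adjusted p = 0.0583). Between the effectors the difference was -0.67 (SE 0.06, adjusted p = 6.33e-06), a 0.626-fold level with dCasRx-RBM25. The gene lies at chr1:154924734-154936991 on the minus strand (GENCODE release 29, GRCh38) and overlaps no other annotated gene.

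MVD, which decarboxylates the kinases' product, ranged from 52.2 CPM in RBM25_MAPT replicate 2 to 78.3 CPM in RBM25_NT replicate 1 and was called in none of the comparisons. IDI1, which interconverts the resulting isoprenoid units, had 125 and 120.2 CPM in RBM25_NT, 119 and 130.1 CPM in RBM25_MAPT, 105 and 114 CPM in RBM25_CD46, 101 and 95.7 CPM in RBFOX1N_NT, 85.8 and 89.8 CPM in RBFOX1N_MAPT, and 96.2 and 118 CPM in dCasRx_NT. Every dCasRx-RBM25 library was above every RBFOX1N-dCasRx-C library, and the 2 dCasRx_NT libraries overlapped both sets. IDI1 was higher under dCasRx-RBM25 than under RBFOX1N-dCasRx-C by 0.41 in log2 (SE 0.07, adjusted p = 0.000607, edgeR). IDI1 shares its locus with the antisense transcript IDI2-AS1.

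FDPS, which joins the isoprenoid units to farnesyl diphosphate, did not pass the expression test but carried the largest called splicing differences of the 29 genes. Its level lay between 135 and 167 CPM in all 12 libraries, and its log2 fold changes were -0.13 in RBM25_NT and 0.00 in RBFOX1N_NT against dCasRx_NT (SE 0.08 each). The exon that differed has 177 nt and lies at chr1:155309789-155309965 on the plus strand (hg38), near the 5′ end of the gene. It is part of 2 of the 9 protein-coding transcripts in GENCODE release 29, and 5 of the 9 skip it. In those 2 transcripts its second base begins the start codon, shown in capitals, so 176 of its bases are coding.
FDPS exon: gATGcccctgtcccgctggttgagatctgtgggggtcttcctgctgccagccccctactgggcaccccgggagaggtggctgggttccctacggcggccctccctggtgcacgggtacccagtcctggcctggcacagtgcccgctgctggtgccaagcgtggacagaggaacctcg
The exon had a PSI of 13.7 and 12.8 in RBM25_NT, 12.4 and 10.6 in RBM25_MAPT, 12.4 and 10.4 in RBM25_CD46, 30.7 and 33.5 in RBFOX1N_NT, 32.0 and 26.0 in RBFOX1N_MAPT, and 10.4 and 15.8 in dCasRx_NT, from 711 to 1030 reads per library. The 4 RBFOX1N-dCasRx-C libraries stood above the 8 others, while dCasRx-RBM25 lay within the range of the control. Mean PSI rose to 32.1 in RBFOX1N_NT, against 13.1 in dCasRx_NT, a difference of 19.0 points (SE 2.11, adjusted p = 0.000136, quasi-binomial model). Between the effectors it was 12.4 with dCasRx-RBM25 and 30.6 with RBFOX1N-dCasRx-C (difference -18.2 points, SE 1.48, adjusted p = 7.68e-07).

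The FDPS intron that ends at the base before this exon, 712 nt at chr1:155309077-155309788, was also retained more with RBFOX1N-dCasRx-C. Its retention was 38.1 and 25.2% in RBM25_NT, 24.9 and 34.4% in RBM25_MAPT, 34.0 and 26.2% in RBM25_CD46, 46.3 and 62.5% in RBFOX1N_NT, 46.7 and 47.1% in RBFOX1N_MAPT, and 26.4 and 25.3% in dCasRx_NT. No RBFOX1N-dCasRx-C library overlapped any other, though the replicates of RBFOX1N_NT were themselves far apart. Mean retention was 54.4% in RBFOX1N_NT and 25.8% in dCasRx_NT (difference 28.6 points, SE 4.76, adjusted p = 0.00323, quasi-binomial model), and 30.7% with dCasRx-RBM25 against 50.6% with RBFOX1N-dCasRx-C (difference -20.0 points, SE 3.75, adjusted p = 0.00158). The difference in RBFOX1N_NT was no longer called without RBFOX1N_NT replicate 2 or dCasRx_NT replicate 2. The intron and the exon share a splice site, so these are not separate observations, and RUSC1-AS1 overlaps FDPS on the opposite strand.

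From squalene to cholesterol, 3 of the 12 genes were higher under dCasRx-RBM25 than under RBFOX1N-dCasRx-C and 3 were lower. Of all genes, 18.0% were higher and 18.7% lower. FDFT1, the squalene synthase, had 141 to 153 CPM with dCasRx-RBM25, 126 to 142 CPM with RBFOX1N-dCasRx-C, and 149 and 135 CPM in dCasRx_NT. It was not called in the main fit (adjusted p = 0.0646 between the effectors, edgeR). Between the effectors it was called with the replicate number as a block and without RBFOX1N_NT replicate 1 or dCasRx_NT replicate 1. SQLE, the squalene epoxidase and a rate-limiting enzyme of the pathway, had 173 and 182 CPM in RBM25_NT, 193 and 195 CPM in RBM25_MAPT, 174 and 176 CPM in RBM25_CD46, 155 and 146 CPM in RBFOX1N_NT, 144 and 149 CPM in RBFOX1N_MAPT, and 165 and 153 CPM in dCasRx_NT. All dCasRx-RBM25 libraries lay above the 6 others. SQLE was higher under dCasRx-RBM25 than under RBFOX1N-dCasRx-C by 0.32 in log2 (SE 0.05, adjusted p = 0.000563, edgeR), and its difference in RBM25_NT from dCasRx_NT was 0.16 (SE 0.08, adjusted p = 0.226). LSS, which closes the sterol rings, had 111 to 138 CPM over the 12 libraries and was not called in the main fit. Without RBM25_MAPT replicate 1, LSS was called between the effectors.

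CYP51A1, which removes a methyl group from lanosterol, cannot be judged from its counts. It had 1.92 to 2.63 CPM in 11 libraries and 5.20 CPM in dCasRx_NT replicate 2, where 194 reads were counted, against 67 in dCasRx_NT replicate 1. The reads spliced across its 9 introns in the authors' splicing table numbered 2208 to 3736 per library in sum and at least 163 at each intron, and the least covered intron had more reads than the gene's own count in every library but dCasRx_NT replicate 2. Divided by the same scaled library sizes as CPM, the summed spliced reads came to 59.7 to 75.6 with dCasRx-RBM25, 57.6 to 66.2 with RBFOX1N-dCasRx-C, and 64.3 and 64.2 in dCasRx_NT, so the excess of dCasRx_NT replicate 2 was absent from them. The annotation holds AC000120.2 and AC000120.3 on the same strand within the CYP51A1 locus, and their part in its count was not tested. CYP51A1 was not called against dCasRx_NT, but it was called in both RBM25_NT and RBFOX1N_NT when dCasRx_NT replicate 1 was left out, which leaves the discrepant library as the only control, and in RBFOX1N_NT with no filter on low counts.

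MSMO1, which oxidises methyl groups of the sterol, differed in level and in splicing. MSMO1 had 50.0 and 52.3 CPM in RBM25_NT, 42.4 and 54.2 CPM in RBM25_MAPT, 48.2 and 51.4 CPM in RBM25_CD46, 41.3 and 39.5 CPM in RBFOX1N_NT, 38.0 and 39.9 CPM in RBFOX1N_MAPT, and 40.8 and 48.8 CPM in dCasRx_NT. The effectors did not overlap, and the control spanned the gap between them. The difference between the effectors was 0.32 in log2 (SE 0.08, adjusted p = 0.00804, edgeR). The MSMO1 exon of 286 nt at chr4:165333340-165333625 carries the start codon in 4 of the gene's 5 coding transcripts and is skipped in the other. Its coding bases follow, with the start codon in capitals.
MSMO1 exon: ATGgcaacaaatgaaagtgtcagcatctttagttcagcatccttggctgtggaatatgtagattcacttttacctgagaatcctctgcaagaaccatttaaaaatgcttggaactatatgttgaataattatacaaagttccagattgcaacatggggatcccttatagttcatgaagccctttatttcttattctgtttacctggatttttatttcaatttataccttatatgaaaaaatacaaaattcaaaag
The PSI of this exon was 66.8 and 74.7 in RBM25_NT, 69.2 and 61.9 in RBM25_MAPT, 70.6 and 69.9 in RBM25_CD46, 78.0 and 72.1 in RBFOX1N_NT, 81.5 and 82.3 in RBFOX1N_MAPT, and 76.6 and 82.5 in dCasRx_NT. The effectors overlapped at RBM25_NT replicate 2 (74.7) and RBFOX1N_NT replicate 2 (72.1). Mean PSI was 68.1 with dCasRx-RBM25 and 78.5 with RBFOX1N-dCasRx-C under matched guides (difference -10.4 points, SE 2.54, adjusted p = 0.0196, quasi-binomial model), close to the threshold of 10 points, and the call was lost without RBM25_NT replicate 1, RBM25_MAPT replicate 2, RBFOX1N_NT replicate 1 or either RBFOX1N_MAPT library.

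NSDHL and HSD17B7 act with MSMO1 in the removal of these methyl groups, and only HSD17B7 passed the test. NSDHL had 60.8 to 71.4 CPM over the 12 libraries. HSD17B7, which reduces the sterol ketone, had 16.3 and 15.2 CPM in RBM25_NT, 16.1 and 14.2 CPM in RBM25_MAPT, 15.3 and 14.7 CPM in RBM25_CD46, 24.8 and 24.6 CPM in RBFOX1N_NT, 24.9 and 24.9 CPM in RBFOX1N_MAPT, and 24.2 and 22.9 CPM in dCasRx_NT. The 6 dCasRx-RBM25 libraries lay below the 6 others, and RBFOX1N-dCasRx-C lay just above the control. HSD17B7 fell in RBM25_NT relative to dCasRx_NT by 0.58 in log2 (SE 0.10, adjusted p = 0.00352, edgeR), and in RBFOX1N_NT its difference was 0.07 (SE 0.10, adjusted p = 0.669). Between the effectors the difference was -0.68 (SE 0.07, adjusted p = 8.89e-06). The gene lies at chr1:162790702-162812817, and its pseudogenes HSD17B7P1 and HSD17B7P2 could take some of its reads.

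TM7SF2 and LBR are a pair of sterol reductases that act on the same double bond, and TM7SF2 alone differed between the effectors by the test. TM7SF2 had 22.6 and 21.6 CPM in RBM25_NT, 22.0 and 19.6 CPM in RBM25_MAPT, 21.5 and 19.8 CPM in RBM25_CD46, 35.4 and 34.6 CPM in RBFOX1N_NT, 35.9 and 32.9 CPM in RBFOX1N_MAPT, and 29.2 and 25.7 CPM in dCasRx_NT. The control again lay between the effectors without overlap. TM7SF2 rose in RBFOX1N_NT relative to dCasRx_NT by 0.35 in log2 (SE 0.10, adjusted p = 0.0422, edgeR), and in RBM25_NT the difference was -0.31 (SE 0.10, adjusted p = 0.0802). Between the effectors it was -0.69 (SE 0.07, adjusted p = 1.13e-05), the largest decrease among the 29 genes. LBR, which is far more abundant and also anchors chromatin at the nuclear lamina, had 209 to 270.5 CPM, and the difference between the effectors was -0.08 (SE 0.09, adjusted p = 0.497). TM7SF2 overlaps VPS51 on the same strand at chr11:65111845-65116384, so reads of their shared part are uncertain.

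TM7SF2 also held an exon and an intron with called differences. The exon of 55 nt at chr11:65112811-65112865 is coding throughout in 8 of the 15 coding transcripts and skipped in 4, and 55 nt is not a multiple of a codon's length.
TM7SF2 exon: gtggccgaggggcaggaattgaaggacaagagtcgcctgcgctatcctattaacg
The PSI of the exon was 77.0 and 76.4 in RBM25_NT, 70.0 and 72.5 in RBM25_MAPT, 65.2 and 70.9 in RBM25_CD46, 65.9 and 65.2 in RBFOX1N_NT, 66.8 and 74.5 in RBFOX1N_MAPT, and 60.5 and 58.0 in dCasRx_NT, from 94 to 196 reads. Both control libraries lay below all 10 others. Mean PSI rose to 76.7 in RBM25_NT, against 59.3 in dCasRx_NT (difference 17.4 points, SE 4.03, adjusted p = 0.0327, quasi-binomial model), a call lost when any of these 4 libraries was left out.

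The TM7SF2 intron of 447 nt at chr11:65112068-65112514 was retained at 23.4 and 12.1% in RBM25_NT, 8.52 and 15.6% in RBM25_MAPT, 11.9 and 10.3% in RBM25_CD46, 25.0 and 28.4% in RBFOX1N_NT, 26.5 and 28.8% in RBFOX1N_MAPT, and 6.86 and 13.6% in dCasRx_NT. The RBFOX1N-dCasRx-C libraries lay above all others, with RBM25_NT replicate 1 the nearest. Mean retention was 26.7% in RBFOX1N_NT and 10.2% in dCasRx_NT (difference 16.5 points, SE 3.87, adjusted p = 0.0414, quasi-binomial model), and 14.9% with dCasRx-RBM25 against 27.2% with RBFOX1N-dCasRx-C (difference -12.3 points, SE 2.98, adjusted p = 0.0106). The first of these was lost without any single library other than those of RBM25_NT and RBM25_MAPT, and the second without RBM25_NT replicate 2 or RBM25_MAPT replicate 1.

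**Figure D3:**
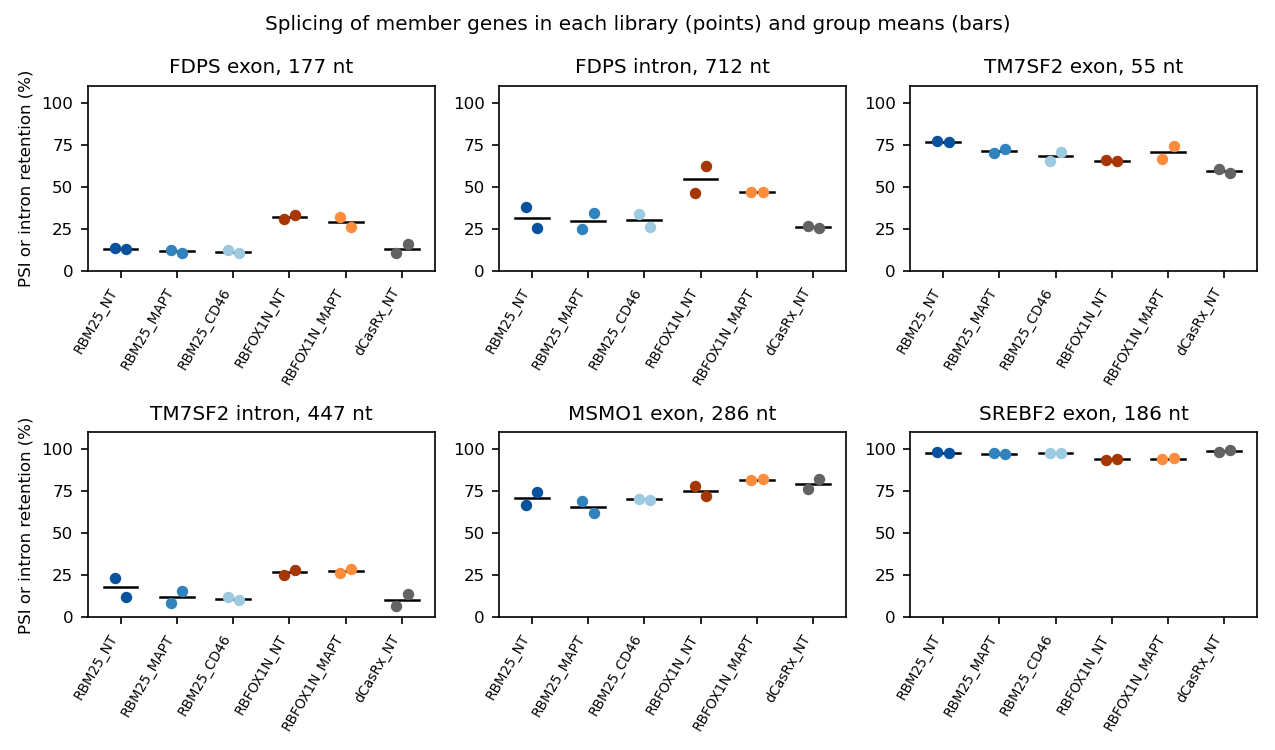
Percent spliced in of 4 exons and percent retention of 2 introns in FDPS, TM7SF2, MSMO1 and SREBF2 in each library (points, coloured by group) with the group mean (bars), on axes that start at 0. The FDPS exon stands at 26.0 to 33.5 in the 4 RBFOX1N-dCasRx-C libraries and at 10.4 to 15.8 in the 8 others; the SREBF2 exon differs by few points and stays above 93 throughout.

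Of the last steps, by EBP, SC5D and DHCR7, SC5D was higher and DHCR7 lower under dCasRx-RBM25 than under RBFOX1N-dCasRx-C. EBP, a sterol isomerase, had 11.5 to 15.3 CPM and was not called. SC5D, a sterol desaturase, had 130.3 and 141 CPM in RBM25_NT, 124 and 149 CPM in RBM25_MAPT, 128 and 141 CPM in RBM25_CD46, 103 and 96.0 CPM in RBFOX1N_NT, 95.03 and 94.8 CPM in RBFOX1N_MAPT, and 110.4 and 122 CPM in dCasRx_NT. The control lay between the effectors, below all dCasRx-RBM25 and above all RBFOX1N-dCasRx-C libraries. SC5D was higher under dCasRx-RBM25 than under RBFOX1N-dCasRx-C by 0.49 in log2 (SE 0.07, adjusted p = 0.000174, edgeR). Neither effector differed from dCasRx_NT by the test (0.23 in RBM25_NT and -0.22 in RBFOX1N_NT, SE 0.10 each, adjusted p = 0.18 and 0.164).

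DHCR7, which reduces the last precursor to cholesterol, had 181 and 193 CPM in RBM25_NT, 197 and 174 CPM in RBM25_MAPT, 195 and 192 CPM in RBM25_CD46, 238 and 222 CPM in RBFOX1N_NT, 242 and 238 CPM in RBFOX1N_MAPT, and 184 and 183 CPM in dCasRx_NT. The 4 RBFOX1N-dCasRx-C libraries lay above the 8 others, and the control lay inside the range of dCasRx-RBM25. DHCR7 rose in RBFOX1N_NT relative to dCasRx_NT by 0.33 in log2 (SE 0.08, adjusted p = 0.0246, edgeR), and its difference in RBM25_NT was 0.03 (SE 0.08, adjusted p = 0.87). Between the effectors it was -0.33 (SE 0.06, adjusted p = 0.000707).

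Of the 3 regulators, INSIG1 differed between the effectors, as did 36.7% of all genes. INSIG1 and SREBF2 were higher in RBM25_NT than in the control, as were 3.88% of all genes. INSIG1, which retains the SREBP precursors and is itself a target of SREBP, had 386 and 384 CPM in RBM25_NT, 419 and 364 CPM in RBM25_MAPT, 336 and 363 CPM in RBM25_CD46, 275 and 272 CPM in RBFOX1N_NT, 258 and 280.0 CPM in RBFOX1N_MAPT, and 294 and 314 CPM in dCasRx_NT. The libraries with dCasRx-RBM25, RBFOX1N-dCasRx-C and dCasRx did not overlap, and dCasRx lay in the middle. INSIG1 rose in RBM25_NT relative to dCasRx_NT by 0.34 in log2 (SE 0.09, adjusted p = 0.0329, edgeR), and its difference in RBFOX1N_NT was -0.15 (SE 0.09, adjusted p = 0.287). Between the effectors it was 0.52 (SE 0.06, adjusted p = 4.36e-05). INSIG1 lies at chr7:155297776-155310235 on the plus strand and overlaps no other annotated gene.

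SREBF2, which codes for SREBP-2, had 341 and 299 CPM in RBM25_NT, 346 and 266 CPM in RBM25_MAPT, 311 and 297 CPM in RBM25_CD46, 293 and 267 CPM in RBFOX1N_NT, 292 and 297 CPM in RBFOX1N_MAPT, and 249.9 and 219 CPM in dCasRx_NT. Both dCasRx_NT libraries lay below the 10 others, and the effectors overlapped. SREBF2 rose in RBM25_NT relative to dCasRx_NT by 0.45 in log2 (SE 0.12, adjusted p = 0.0342, edgeR), and in RBFOX1N_NT the difference was 0.26 (SE 0.12, adjusted p = 0.176). The effectors differed by 0.12 (SE 0.08, adjusted p = 0.264). SREBF1, which codes for SREBP-1, ranged from 62.9 CPM in RBM25_MAPT replicate 2 to 97.9 CPM in RBFOX1N_MAPT replicate 1. It was called in no comparison in the main fit. Between the effectors it was called with the replicate number as a block and without RBM25_MAPT replicate 1.

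**Figure D4:**
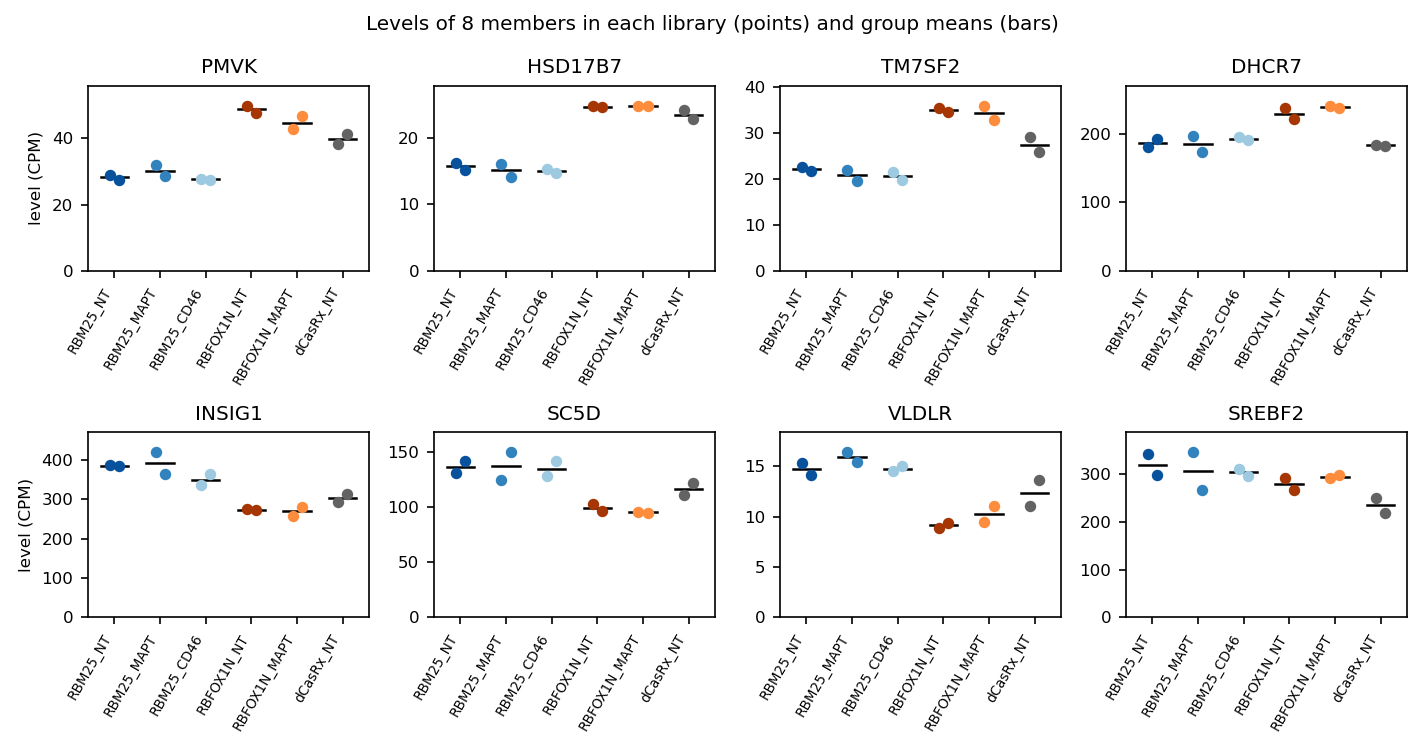
Level in CPM of 8 genes in each library (points, coloured by group) and group means (bars), on axes that start at 0. PMVK, HSD17B7 and TM7SF2 are lower under dCasRx-RBM25 than under RBFOX1N-dCasRx-C or dCasRx, INSIG1, SC5D and VLDLR are higher than with RBFOX1N-dCasRx-C, DHCR7 is raised with RBFOX1N-dCasRx-C, and SREBF2 is lowest in dCasRx_NT.

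Of the 29 promoters, 25 were matched in RefSeq (GRCh38.p14), each from 250 bases before to 50 bases after the start. The sterol regulatory element was searched as TCACNCCAC, the NF-Y box as CCAAT and the Sp1 box as GGGCGG, each on both strands. The first was found in 1 of 25 promoters (4%, against 1.15% of all promoters in that table), the second in 17 (68%, against 35.7%) and the third in 22 (88%, against 44.6% of all promoters and 68.1% of those of tested genes). The single match to the sterol element begins 133 bases before the start of SREBF2. The stretch that holds it, chr22:41832942-41833010 on the plus strand, is shown with the match in capitals.
SREBF2 promoter: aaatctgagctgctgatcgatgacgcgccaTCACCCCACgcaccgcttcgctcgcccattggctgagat
These matches describe letters in the window. PMVK and VLDLR had a GGGCGG and no CCAAT there, and HSD17B7, TM7SF2, INSIG1 and SC5D had both. Any link between the boxes and the levels was not tested.

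Both genes of sterol uptake and carriage were higher under dCasRx-RBM25 than under RBFOX1N-dCasRx-C, as were 18.0% of all genes. VLDLR, a receptor for lipoproteins, had 15.3 and 14.1 CPM in RBM25_NT, 16.4 and 15.4 CPM in RBM25_MAPT, 14.5 and 15.02 CPM in RBM25_CD46, 8.89 and 9.41 CPM in RBFOX1N_NT, 9.41 and 11.0 CPM in RBFOX1N_MAPT, and 11.0 and 13.6 CPM in dCasRx_NT. The effectors lay on opposite sides of the control, which RBFOX1N_MAPT replicate 2 nearly reached. VLDLR was higher with dCasRx-RBM25 by 0.66 in log2 (SE 0.09, adjusted p = 0.000103, edgeR), the largest increase among the 29 genes. It fell in RBFOX1N_NT relative to dCasRx_NT by 0.43 (SE 0.13, adjusted p = 0.0488), and its difference in RBM25_NT was 0.25 (SE 0.12, adjusted p = 0.228).

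STARD4, a carrier of cholesterol between membranes, had 27.1 and 27.7 CPM in RBM25_NT, 20.5 and 28.1 CPM in RBM25_MAPT, 22.9 and 25.9 CPM in RBM25_CD46, 23.6 and 22.9 CPM in RBFOX1N_NT, 18.2 and 17.9 CPM in RBFOX1N_MAPT, and 24.5 and 32.5 CPM in dCasRx_NT. The effectors overlapped, and the dCasRx_NT libraries lay above all of RBFOX1N-dCasRx-C. The difference between the effectors was 0.33 in log2 (SE 0.11, adjusted p = 0.0249, edgeR), and it was no longer called without any 1 of the 4 RBFOX1N-dCasRx-C libraries, RBM25_NT replicate 2 or RBM25_MAPT replicate 2.

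Among the 5 genes of fatty acid synthesis, 1 passed the test between the effectors, where 36.7% of all genes did. SCD, which puts the first double bond into saturated fatty acids, had 1114 and 1200.5 CPM in RBM25_NT, 1291 and 1298 CPM in RBM25_MAPT, 1142 and 1217 CPM in RBM25_CD46, 1016 and 974 CPM in RBFOX1N_NT, 968 and 951 CPM in RBFOX1N_MAPT, and 1028 and 989 CPM in dCasRx_NT. All dCasRx-RBM25 libraries lay above the 6 others. SCD was higher under dCasRx-RBM25 than under RBFOX1N-dCasRx-C by 0.32 in log2 (SE 0.05, adjusted p = 0.000508, edgeR), and its differences from dCasRx_NT were 0.20 in RBM25_NT and -0.02 in RBFOX1N_NT (SE 0.08 each, adjusted p = 0.132 and 0.9).

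FASN, which builds palmitate, had 1112 and 1078 CPM in RBM25_NT, 1078 and 783 CPM in RBM25_MAPT, 1245 and 1084 CPM in RBM25_CD46, 1173 and 1194 CPM in RBFOX1N_NT, 1138 and 1213 CPM in RBFOX1N_MAPT, and 1032 and 894 CPM in dCasRx_NT. RBM25_MAPT replicate 2 stood apart as the lowest of the 12. The difference between the effectors was -0.22 in log2 (SE 0.09, adjusted p = 0.0672, edgeR), and it was called by DESeq2 and, in edgeR, with no filter, with only the groups compared, with the replicate number as a block, and without RBM25_MAPT replicate 1 or dCasRx_NT replicate 2. In RBFOX1N_NT its difference from dCasRx_NT was 0.30 (SE 0.13, adjusted p = 0.149), which was called with no filter and without either RBM25_MAPT library. ACLY, which supplies acetyl-CoA in the cytosol, had 531 to 680.0 CPM, and the desaturases FADS1 and FADS2, whose genes overlap on opposite strands, had 110.1 to 135 and 89.6 to 107 CPM. ACLY, FADS1 and FADS2 were called in none of the comparisons in the main fit. Between the effectors, ACLY was called without RBM25_NT replicate 2, and FADS2 without RBM25_MAPT replicate 1.

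Per kilobase of exonic length, SCD was the most abundant of the 29 genes at 205 CPM per kb (mean over the groups), followed by ACLY at 121, FASN at 116 and INSIG1 at 90.1 CPM per kb. Among the enzymes of sterol synthesis, DHCR7 (48.9), LBR (46.7), FDPS (40.5) and SQLE (38.8 CPM per kb) led. The lowest were CYP51A1 (0.666), whose counts cannot be judged, HSD17B7 (4.15), EBP (5.35), MVK (7.05) and TM7SF2 (7.85 CPM per kb). VLDLR was at 1.37 and STARD4 at 4.28 CPM per kb. The exonic length counts all annotated transcripts, so genes with many long isoforms are understated. Over the 6 groups at once, 12 of the 29 genes differed by the F test (26.1% of all genes did), namely MVK, PMVK, IDI1, SQLE, HSD17B7, TM7SF2, SC5D, DHCR7, INSIG1, VLDLR, STARD4 and SCD.

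None of these genes was called for a change of guide. Of the 29 genes, 0 were called in RBM25_MAPT against RBM25_NT, 0 in RBM25_CD46 against RBM25_NT and 0 in RBFOX1N_MAPT against RBFOX1N_NT, with 0.0% of all genes called in each (edgeR), and DESeq2 also called 0 of the 29. At an unadjusted p under 0.05 there were 1, 0 and 1 of the 29 genes, against 1026, 487 and 418 of all genes. The log2 fold changes ran from -0.24 to 0.21, from -0.20 to 0.11 and from -0.37 to 0.16 in these comparisons, with an SE of 0.08 to 0.35. FADS1 gave the lowest p in RBM25_MAPT (135 and 127 CPM, against 110.1 and 116 CPM in RBM25_NT, 0.21 in log2, SE 0.08, adjusted p = 0.868), and STARD4 did so in RBFOX1N_MAPT (18.2 and 17.9 CPM, against 23.6 and 22.9 CPM in RBFOX1N_NT, -0.37, SE 0.15, adjusted p = 1). The MAPT guide's effect was not called as different between the effectors for any of the 29 genes (0 at an unadjusted p under 0.05, against 765 of all genes). When RBM25_MAPT replicate 1 was left out, FASN was called lower in RBM25_MAPT than in RBM25_NT. That group then rested on replicate 2 alone (783 CPM, against 1078 CPM in replicate 1), and calls were also made among all genes. Of the 412 splicing events, 0 were called for a guide, 19, 18 and 16 had an unadjusted p under 0.05, against 5828, 5917 and 5942 of all events, and the quasi-binomial model called 0.000998%, 0.0% and 0.0% of all events.

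Further genes of lipid metabolism are given by list. Of 15 further genes of fatty acid and lipid synthesis, 4 were higher and 4 lower under dCasRx-RBM25 than under RBFOX1N-dCasRx-C (edgeR), where 18.0% of all genes were higher and 18.7% lower. ACSS2, which makes acetyl-CoA from acetate (0.47 in log2, SE 0.07), ELOVL6 (0.29, SE 0.08) and ELOVL5 (0.20, SE 0.07), which lengthen fatty acids, and ACSL1 (0.27, SE 0.07), which activates them, were higher. ELOVL1, which lengthens very long fatty acids (-0.66, SE 0.06), MID1IP1 (-0.39, SE 0.08), LPIN1 (-0.23, SE 0.06) and ACACA, the acetyl-CoA carboxylase that MID1IP1 activates (-0.17, SE 0.06), were lower. Against dCasRx_NT, 0 of the 15 were called in RBM25_NT, and ELOVL1 (0.50, SE 0.09), LPIN1 (0.43, SE 0.09) and MID1IP1 (0.43, SE 0.12) were higher in RBFOX1N_NT, with 7.62% and 10.8% of all genes called in these comparisons.

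Of 4 genes that process or retain SREBP, INSIG2 was higher under dCasRx-RBM25 than under RBFOX1N-dCasRx-C (0.59 in log2, SE 0.13, adjusted p = 0.00328, edgeR), and SCAP, MBTPS1 and MBTPS2 were not called in any comparison. Of 11 genes of sterol transport, storage and efflux, MYLIP, a ubiquitin ligase for lipoprotein receptors, was higher (0.23, SE 0.07), and the oxysterol-sensing receptor NR1H3 (-0.55, SE 0.08) and the sterol carrier OSBP (-0.15, SE 0.05) were lower, against the same 18.0% and 18.7% of all genes. NR1H2, the sister receptor of NR1H3, was the 1 of 11 called in RBM25_NT against dCasRx_NT (0.48, SE 0.13, adjusted p = 0.0342), where 3.88% of all genes were higher.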

How the data were processed

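The authors deposited a table of whole-number read counts per Ensembl gene and a splicing table that gives, for each event and library, percent spliced in (PSI) and corrected reads. Per the submitters' processing notes, STAR 2.7.10, edgeR and hg38 were used, and per the labels' protocols poly(A) libraries were made from 500 ng of RNA with a directional kit and read as 150 nt pairs; the annotation, the strand setting and the splicing tool were not given in the sources used here. Symbols were found for 62639 of 62710 gene IDs. Libraries were grouped by title and columns matched by name; 0 columns were unused. The deposited percent lay within 0.05 points of that from the reads in 99.16% of 6458113 values.

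The counts of all libraries entered the quasi-likelihood test of edgeR 4.0.16 (R 4.3.3, TMM scaling, filterByExpr) in 1 fit of 6 group means over 12 libraries (6 residual degrees of freedom, common coefficient of variation 0.0977), with Benjamini-Hochberg adjustment over 20593 genes. CPM values use TMM-scaled library sizes. Splicing was tested on the reads with a quasi-binomial model (dispersion moderated with 9.9 prior degrees of freedom and floored at 1) for events with at least 20 reads in each library and 24 reads of the less used form. Both tests were tested on simulated data. Alternatives were DESeq2 1.42.0, its size factors, no filter, only the groups compared, a replicate block, each library left out, other read and PSI thresholds and limma 3.58.1 on logit PSI. All 29 genes are named, with full values for those called, together with called events and called genes of 3 further lists; the members and lists were chosen with earlier results of these data known. Exons were placed on GENCODE release 29 (GRCh38), the source of their sequences. A 2-against-2 comparison rests on the spread shared by all groups.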

Additional observations from a re-analysis of the deposited data

Results flagged for a closer look

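For 6 of the 29 genes the 2 effectors lay on opposite sides of the control and the difference between the effectors passed the test, which held for 8.07% of all genes. None of the 6 passed the test against dCasRx_NT with both effectors, and SC5D passed with neither. In each, both RBM25_NT and both RBFOX1N_NT libraries lay on opposite sides of both dCasRx_NT libraries, and the tested difference is that of dCasRx-RBM25 minus RBFOX1N-dCasRx-C, averaged over the nontargeting and MAPT guides (edgeR, adjusted p under 0.05). In RBM25_NT and RBFOX1N_NT against dCasRx_NT, PMVK had log2 differences of -0.50 and 0.29, HSD17B7 of -0.58 and 0.07, and TM7SF2 of -0.31 and 0.35. Between the effectors these came to -0.67 for PMVK, -0.68 for HSD17B7 and -0.69 for TM7SF2. Against dCasRx_NT in the same order, INSIG1 had 0.34 and -0.15, SC5D had 0.23 and -0.22, and VLDLR had 0.25 and -0.43. Between the effectors these came to 0.52 for INSIG1, 0.49 for SC5D and 0.66 for VLDLR. The differences between the effectors were called for all 6 genes under each of the 17 alternatives tried.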

How the results depend on the processing

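Of the 22 called differences in expression, 14 kept their call and 0 reversed under all alternatives, which left each library out in turn among others; between the effectors, HMGCS1 and STARD4 were the genes lost. Of the 8 called differences in splicing, 1 (the FDPS exon between the effectors) kept its call under all and 0 reversed. With only the groups compared in the fit, 2 of the 29 genes were called in RBM25_NT and 1 in RBFOX1N_NT against dCasRx_NT. The shares of all genes called were 3.34% and 8.09%. With no filter on low counts, RBFOX1N_NT gained CYP51A1 and FASN and lost TM7SF2 and VLDLR, with 7.07% of all genes called. Leaving out 1 library gave 2 to 5 genes in RBM25_NT, 0 to 6 in RBFOX1N_NT and 12 to 18 between the effectors. It gave 9 to 17 over the 6 groups (STARD4, IDI1 and SQLE were those lost) and 0 to 1 for the MAPT guide with dCasRx-RBM25. The share of all genes called ran from 1.7% to 12.3%, 2.88% to 14.6%, 24.6% to 37.4%, 14.3% to 35.2% and 0.0% to 2.55%. The median log2 fold change of the 29 genes then ran from -0.0509 to 0.0818 in RBM25_NT, from -0.0437 to 0.0147 in RBFOX1N_NT, from 0.00442 to 0.0678 between the effectors, from -0.0229 to 0.0391 for the MAPT guide and from -0.0417 to 0.015 for the CD46 guide with dCasRx-RBM25, from -0.0514 to 0.0083 for RBFOX1N_MAPT against RBFOX1N_NT, and from -0.0188 to 0.0718 for the guide-by-effector difference. With limma on logit PSI, 0, 0 and 1 splicing events were called in RBM25_NT, in RBFOX1N_NT and between the effectors. With a threshold of 5 points there were 4 in RBM25_NT and 15 between the effectors, and the share of all events at 5 points is not given here. With no threshold on size there were 10 and 45 of 412, against 2.31% and 12.1% of all events. Without 1 library, at 10 points, there were 0 to 1 in RBM25_NT, 1 to 4 in RBFOX1N_NT and 3 to 4 between the effectors. Of all events, 237 to 756, 472 to 1156 and 2388 to 2936 were then called. Over every setting tried, the calls among all events ran from 50 to 1460, 293 to 1860 and 1340 to 6250. Over all genes, the 0 called for RBM25_MAPT against RBM25_NT became 67 with no filter on low counts, 5 in DESeq2 and 555 without RBM25_MAPT replicate 1. The causes were not tested.

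The labels do not say that a replicate number marks a shared batch or day. Deviations of same-numbered libraries correlated at 0.319 to 0.416 among the 3 dCasRx-RBM25 groups and at -0.165 to 0.117 in pairs with the other groups, so the numbers were not taken as pairs over the series. With the replicate number as a block, 5 genes were called in RBM25_NT (TM7SF2 added) and 5 in RBFOX1N_NT (PMVK added). Between the effectors there were 17 (FDFT1, SREBF1 and FASN added), and over the 6 groups 14. The shares of all genes called were 9.55%, 12.7%, 38.9% and 30.1%. A crossed block for the 2 RBFOX1N-dCasRx-C groups, chosen after seeing the data, called 0 of the 29 genes and 0 of all genes between them. Precision was lowest for CYP51A1 (67 to 194 reads), with an SE of 0.24 to 0.48 in log2.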

Other observations

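Several splicing differences in these genes passed the adjusted p of 0.05 in the quasi-binomial model but stayed under 10 points. Between the effectors 45 of the 412 events did so or were called, where 12.1% of all events passed that adjusted p. The events described first, up to the SREBF1 intron, were picked as the uncalled events with the lowest p. The comparisons used were those of the effectors with each other and with dCasRx_NT. The SREBF2 exon of 186 nt at chr22:41902970-41903155 had a PSI of 97.1 to 98.1 with dCasRx-RBM25, 93.9 to 94.6 with RBFOX1N-dCasRx-C, and 98.1 and 99.5 in dCasRx_NT (3.37 points between the effectors, SE 0.497, adjusted p = 0.000181). Its length is a multiple of 3, and the libraries of the 2 effectors did not overlap. The ACAT2 exon of 182 nt at chr6:159767005-159767186 had 95.8 to 98.4 with dCasRx-RBM25, 93.1 to 93.7 with RBFOX1N-dCasRx-C, and 96.1 and 97.1 in dCasRx_NT (3.59 points, SE 0.621, adjusted p = 0.000596).

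FASN held a pair of neighbouring exons that differed in opposite directions. The exon of 174 nt at chr17:82093598-82093771 had 96.6 to 98.5 with dCasRx-RBM25, 99.1 to 99.9 with RBFOX1N-dCasRx-C, and 99.6 and 99.4 in dCasRx_NT (-1.90 points between the effectors, SE 0.294, adjusted p = 0.000289). The exon of 123 nt at chr17:82092897-82093019 had 98.5 to 99.5 with dCasRx-RBM25, 96.9 to 98.1 with RBFOX1N-dCasRx-C, and at least 99.8 in dCasRx_NT (1.54 points, SE 0.317, adjusted p = 0.00658).

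Retention of an intron in SREBF1 and of one in MSMO1 differed between the effectors. The SREBF1 intron of 364 nt at chr17:17819726-17820089 was retained at 5.93 to 10.2% with dCasRx-RBM25, 1.08 to 3.41% with RBFOX1N-dCasRx-C, and 5.49 and 7.20% in dCasRx_NT (6.99 points between the effectors, SE 1.17, adjusted p = 0.000609), so that RBFOX1N-dCasRx-C lay apart. The following events were also chosen after their values were seen. The MSMO1 intron of 1375 nt at chr4:165340376-165341750 was retained at 5.18 to 10.2% with dCasRx-RBM25, 0.74 to 3.31% with RBFOX1N-dCasRx-C, and 1.14 and 1.93% in dCasRx_NT (5.42 points, SE 0.985, adjusted p = 0.00346). The SREBF2 exon of 193 nt at chr22:41877229-41877421 had a PSI of 77.0 to 81.4 with dCasRx-RBM25, 84.0 to 85.6 with RBFOX1N-dCasRx-C, and 86.9 and 84.9 in dCasRx_NT (-5.38 points, SE 1.08, adjusted p = 0.00421). In FDPS, the exon of 72 nt at chr1:155319857-155319928 had a PSI of 75.1 to 79.4 with dCasRx-RBM25, 74.3 to 80.5 with RBFOX1N-dCasRx-C, and 84.0 and 87.6 in dCasRx_NT (-6.96 points in RBM25_NT, SE 1.75, adjusted p = 0.0507, and -9.82 points in RBFOX1N_NT, SE 1.94, adjusted p = 0.0103).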
